A study of Mus musculus with 14 samples.

Results

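The 10 genes described here, Omp, Adcy3, Gnal, Gng13, Cnga2, Cnga4, Cngb1, Ano2, Rtp1 and Rtp2, encode the protein that marks mature olfactory sensory neurons (OSNs), the steps that turn odor binding into current, and the chaperones of odorant receptors. They were chosen by symbol as members of the odor transduction cascade, with earlier results of these data known. All 10 were found among the 51211 gene symbols of each of 2 tables. RNA had been measured in whole olfactory epithelium of 14 mice at postnatal day 5. In the Kir2.1 experiment, 3 mice carried both OMP-IRES-tTA and tetO-Kir2.1-IRES-tauLacZ, and 3 control mice, described as littermates, were heterozygous for OMP-IRES-tTA. By these genotypes the transactivator is made from the Omp locus in both groups. Only in the mice with both alleles does it drive Kir2.1, in the cells that express Omp. By the study's account, Kir2.1 silences vomeronasal neurons as well as OSNs. Kir2.1 is a potassium channel that holds the membrane near its resting potential and silences spontaneous firing. The records also name the control libraries wt. The study's methods define controls as single-allele littermates and wild type mice, without naming the allele. Whether each control mouse carried the Omp allele was not tested. The sample records give the mice with both alleles a treatment term that the study uses for adults fed doxycycline. They were pups, however, and the name Kir2.1 mice is used for them below. In the PEA experiment, 4 wild type mice were exposed to 2-phenylethylamine (PEA), an odorant detected by trace amine-associated receptors, from postnatal day 0 to day 5, and 4 wild type control mice were not. The records name C57BL/6 as the background of all mice, while the study's methods name CD-1 pups for the odor exposure.

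In an OSN an odorant receptor activates the olfactory G protein, whose alpha subunit is encoded by Gnal and whose gamma subunit by Gng13. The G protein stimulates the adenylyl cyclase encoded by Adcy3, and the cAMP it makes opens a cyclic nucleotide-gated channel built from the products of Cnga2, Cnga4 and Cngb1. Calcium entering through this channel opens the chloride channel encoded by Ano2, which amplifies the response. Rtp1 and Rtp2 encode receptor transporting proteins that help odorant receptors reach the cell surface, and Omp encodes olfactory marker protein, an abundant cytoplasmic protein of mature OSNs.

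Promoter sequences from RefSeq (GRCm38.p6, 250 bases before to 50 bases after a transcript's start) were read for 7 of the 10 genes. They are shown for the 3 subunits of the cyclic nucleotide-gated channel, because their products form 1 channel and their levels are compared below. Capitals mark CCCNNGGG, the palindromic core of the site bound by the EBF (Olf/Ebf) factors, which are known regulators of OSN genes. The regions were chrX:71991599-71991898 on the plus strand for Cnga2, chr7:105404318-105404617 on the plus strand for Cnga4 and chr8:95306536-95306835 on the minus strand for Cngb1, each written 5′ to 3′ along the gene.
Cnga2: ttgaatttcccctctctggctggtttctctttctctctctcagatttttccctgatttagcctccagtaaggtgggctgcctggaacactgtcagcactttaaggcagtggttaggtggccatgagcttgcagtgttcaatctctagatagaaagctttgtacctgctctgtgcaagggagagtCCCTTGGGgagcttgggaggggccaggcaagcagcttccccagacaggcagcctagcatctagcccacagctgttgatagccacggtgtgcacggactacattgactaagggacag
Cnga4: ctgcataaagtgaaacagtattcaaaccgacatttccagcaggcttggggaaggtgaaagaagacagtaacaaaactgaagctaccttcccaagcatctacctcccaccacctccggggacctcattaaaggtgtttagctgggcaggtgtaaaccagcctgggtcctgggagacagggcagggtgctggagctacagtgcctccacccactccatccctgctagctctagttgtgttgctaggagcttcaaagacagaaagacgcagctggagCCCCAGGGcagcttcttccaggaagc
Cngb1: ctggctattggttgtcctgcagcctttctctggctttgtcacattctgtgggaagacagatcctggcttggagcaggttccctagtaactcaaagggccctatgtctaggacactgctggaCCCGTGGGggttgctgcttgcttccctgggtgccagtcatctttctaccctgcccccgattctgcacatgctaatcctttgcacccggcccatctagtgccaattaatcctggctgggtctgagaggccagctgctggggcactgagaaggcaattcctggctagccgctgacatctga
The core began 66 bases before the start in Cnga2, 129 bases before it in Cngb1 and 24 bases after it in Cnga4. On both strands, CCCNNGGG was found in 6 of the 11 promoters of the 7 genes, namely in Cnga2, Cnga4, Cngb1, Ano2, Gng13 and Rtp2 but not in Adcy3, and in 13.7% of all 32851 promoters of this length. The longer form TCCCNNGGGA, which contains the core, was in 0 of these 11 promoters and in 0.904% of all promoters. The core was searched after the longer form had given no match, and a match of letters is not a bound site.

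In the Kir2.1 experiment, Kcnj2, the gene that encodes Kir2.1, read 986, 1074 and 1274 normalized counts in the 3 control mice and 17926, 18530 and 24193 in the 3 mice with the transgene, which fits the genotypes in the labels. Normalized counts are gene-level estimates scaled between the libraries of 1 experiment, and how deeply each library was read is unknown. A difference between groups was tested with limma on log2(normalized count + 1) over all genes with a mean of at least 10, with Benjamini-Hochberg adjustment, and a gene was called at an adjusted p under 0.05. All 10 transduction genes passed this filter in both experiments. In whole tissue, fewer OSNs and less RNA per OSN cannot be told apart. Nothing in the labels says more of how mice of a group are related. The p-values set a group difference against the spread between these mice within groups, which may leave out differences between litters.

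All 10 transduction genes had a lower mean in the Kir2.1 mice than in the control mice, at 66.0% of the control mean for Omp to 79.2% for Cnga2. In 9 of the 10 the 3 Kir2.1 mice were all lower than the 3 control mice, and Gnal was the exception. Of all 19807 genes tested, 9.04% were lower without overlap. The median log2 fold change of the 10 genes was -0.41, and that of all genes tested was 0.0056. After adjustment over all genes 1 of the 10, Omp, was called lower, where 0.278% of all genes were. The unadjusted p was under 0.05 and the value lower for all 10, and for 6.20% of all genes.

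**Figure D1:**
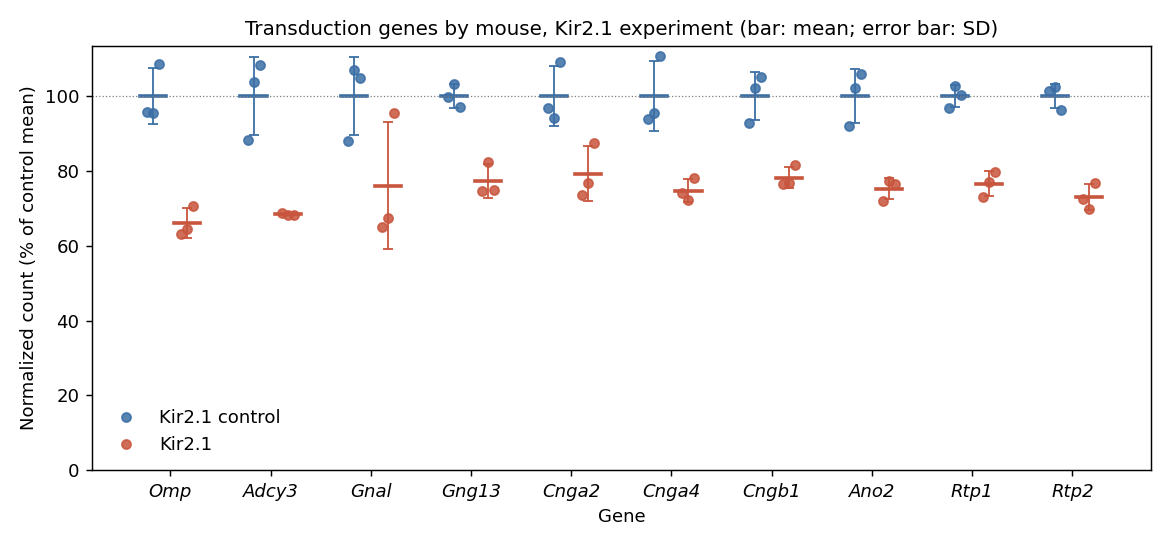
Normalized counts of the 10 transduction genes in the Kir2.1 experiment as a percentage of the control mean (vertical axis), by gene (horizontal axis). Each point is a mouse (3 control mice, 3 Kir2.1 mice), thick bars are means and error bars are SD. Kir2.1 mice lie below all control mice for 9 genes, and for Gnal the highest Kir2.1 mouse lies within the range of the control mice.

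Omp read 31936, 31853 and 36226 normalized counts in the 3 control mice and 21062, 21452 and 23516 in the 3 Kir2.1 mice. The highest Kir2.1 mouse was 26.2% below the lowest control mouse. In limma its log2 fold change was -0.60 with an SE of 0.08 (95% interval -0.79 to -0.40, adjusted p = 0.0466). This call did not hold when any single mouse was left out, and the adjusted p of Omp then lay between 0.0704 and 0.175 while its log2 fold change stayed between -0.65 and -0.54. By the genotypes in the records, the allele that carries the transactivator is at Omp itself in both groups.

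Receptor transport genes were lower too, by less than Omp. Rtp1 read 13473, 14296 and 13965 in control mice and 10166, 10723 and 11086 in Kir2.1 mice, with no overlap (limma log2 fold change -0.38 ± 0.07 SE, adjusted p = 0.0846). Rtp2 read 8247, 8318 and 7830 in control mice against 5894, 5679 and 6246, again with no overlap (limma log2 fold change -0.45 ± 0.07 SE, adjusted p = 0.0531). The SD over control mice was 2.98% of the mean for Rtp1 and 3.24% for Rtp2, and with Gng13 (3.16%) these were the steadiest of the 10 genes. The ratio of Rtp2 to Rtp1, each per exonic length, was 0.682 in control mice and 0.651 in Kir2.1 mice, with ranges that overlapped (0.654 to 0.714 and 0.618 to 0.676). The ratio of Rtp1 to Omp did not overlap (0.265 to 0.308 in control mice and 0.324 to 0.343 in Kir2.1 mice). Nor did that of Cnga2 to Omp (0.222 to 0.229 and 0.263 to 0.281), while those of Adcy3 and Gnal to Omp overlapped.

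For the G protein, Gng13 separated the groups and Gnal did not. Gng13 read 6281, 6496 and 6098 in control mice and 4697, 5184 and 4707 in Kir2.1 mice (limma log2 fold change -0.37 ± 0.07 SE, adjusted p = 0.102). Gnal read 23695, 28807 and 28234 in control mice and 17472, 18171 and 25703 in Kir2.1 mice (limma log2 fold change -0.41 ± 0.16 SE, adjusted p = 0.400). Kir2.1 mouse 3 lay above control mouse 1 and the other Kir2.1 mice lay below all control mice. With single mice left out the log2 fold change of Gnal ran from -0.59 without Kir2.1 mouse 3 (limma adjusted p = 0.125) to -0.31 without Kir2.1 mouse 1 (limma adjusted p = 0.735).

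Adcy3, the cyclase, read 15349, 18045 and 18828 in control mice and 11982, 11861 and 11893 in Kir2.1 mice. The SD over the 3 Kir2.1 mice was 0.529% of their mean, and that over the control mice 10.5%. Its log2 fold change of -0.54 (SE 0.09, limma adjusted p = 0.0720) was second in size to that of Omp among the 10.

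The 3 channel subunits were lower together. Cnga2, the main subunit, read 10438, 10125 and 11752 in control mice and 7914, 8255 and 9433 in Kir2.1 mice (limma log2 fold change -0.34 ± 0.09 SE, adjusted p = 0.243), and its gap between the groups, 6.84% of the lowest control mouse, was the narrowest of the 9 genes that did not overlap. Cnga4, a modulatory subunit, read 3785, 3849 and 4470 against 2983, 2910 and 3151 (limma log2 fold change -0.42 ± 0.08 SE, adjusted p = 0.132). Cngb1, the beta subunit, read 4083, 4502 and 4634 against 3364, 3382 and 3590 (limma log2 fold change -0.35 ± 0.07 SE, adjusted p = 0.142). The proportions of the subunits did not separate the groups. Per exonic length, Cnga4 was 0.417 to 0.438 of Cnga2 in control mice and 0.384 to 0.434 in Kir2.1 mice, and Cngb1 was 0.165 to 0.188 and 0.161 to 0.179 of it. Ano2, the chloride channel downstream, read 4522, 5019 and 5201 in control mice and 3541, 3793 and 3761 in Kir2.1 mice, with no overlap (limma log2 fold change -0.41 ± 0.08 SE, adjusted p = 0.103).

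With 3 mice against 3, an exact permutation test over the mice (two-sided) cannot go below p = 0.1, and this smallest value was reached by the 9 genes that did not overlap, while Gnal had an exact p of 0.2. Control mouse 1 stood apart in vomeronasal receptor genes, with a mean log2 value of 2.47 over 573 genes against 0.65 to 0.70 in the other 5 mice, and Trpc2, the vomeronasal channel gene, read 283 to 528 in control mice and 145 to 225 in Kir2.1 mice. Without control mouse 1 all 10 transduction genes were still lower, at log2 fold changes of -0.63 to -0.36, and their limma adjusted p-values were 0.0655 to 0.476.

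Other genes of the pathway were read from lists of partners of the early steps and of the steps that end the response. Over all genes tested, 48.8% were lower in Kir2.1 mice, 0.278% were called lower and 6.20% were lower at an unadjusted limma p under 0.05. Of 6 partners of signaling onset and trafficking (Gnas, Gnb1, Ric8b, Gfy, Reep1 and Stoml3), 5 were lower in Kir2.1 mice and 0 were called. An unadjusted limma p under 0.05 was seen for 4 of them, and the median log2 fold change was -0.30. Gnb1, a G protein beta subunit and the most abundant of them, had 49700 ± 6840 normalized counts in control mice and 42660 ± 4520 in Kir2.1 mice (SD, n = 3 each; log2 fold change -0.22, adjusted p = 0.595 by limma). Of 9 genes of termination and chloride loading, 7 were lower and 1 was called. It was Pde1c, a phosphodiesterase that breaks down cAMP in OSN cilia, which fell from 4351 ± 154 to 2772 ± 168 (SD, n = 3 each; limma log2 fold change -0.65 ± 0.07 SE, adjusted p = 0.0223). The median of this list was -0.09.

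The transduction genes were next set against markers of OSN maturity, which were also chosen with earlier results of these data known. All 6 mature OSN markers (Stoml3, Gfy, Umodl1, Slc17a6, Ebf2 and Pde1c) were lower in Kir2.1 mice, 3 of them were called, and their median log2 fold change was -0.61. Stoml3, Gfy and Pde1c also stand in the pathway lists above, so the counts of these lists are not separate. The called markers were Slc17a6, a vesicular glutamate transporter (log2 fold change -0.76, adjusted p = 0.00958), Umodl1 (-0.66, adjusted p = 0.0242) and Pde1c, all by limma, and Gfy was the most abundant (-0.56, adjusted p = 0.0720 by limma). Of 8 immature OSN markers 5 were lower, 0 were called, 0 had an unadjusted limma p under 0.05, and the median was -0.09, with Tubb3 the most abundant at -0.14 (adjusted p = 0.741). The summed level of the mature list was 104700 to 115900 normalized counts in control mice and 74690 to 79240 in Kir2.1 mice, and that of the immature list 113500 to 121400 and 99280 to 131400. Relative to the mean log2 level of the mature list, 3 of the 10 transduction genes (Gng13, Cngb1 and Rtp1) were higher in Kir2.1 mice without overlap, by 0.14 to 0.17 on the log2 scale. Over all genes tested that share was 70.1%, since the mature list itself lay 0.53 lower. Omp, Adcy3, Gnal, Cnga2, Cnga4, Ano2 and Rtp2 overlapped between the groups relative to this list. Omp was at 1.20 to 1.49 against 1.21 to 1.32, and Adcy3 at 0.26 to 0.54 against 0.33 to 0.45. The others of these had a higher mean in Kir2.1 mice, by 0.07 for Rtp2 to 0.19 for Cnga2.

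Markers of other cells moved with the groups in places. The 5 blood and immune markers had a higher mean in Kir2.1 mice, with a summed level of 6366 to 10970 in control mice and 11890 to 17790 in Kir2.1 mice, and the 4 respiratory ciliated markers summed to 11220 to 13720 and 14130 to 20500. Neither list had a called gene. At an unadjusted limma p under 0.05, 3 of the 5 blood and immune markers and 1 of the 4 ciliated markers were higher, where 4.93% of all genes were. No marker of either list was at 0, and Ptprc, an immune cell marker, was the lowest, at a mean of 78.8 in control mice and 131 in Kir2.1 mice. The summed levels of progenitor, horizontal basal, sustentacular, vomeronasal, necklace and microvillar markers overlapped between groups, and those of 4 ensheathing glia markers (2936 to 3408 and 3335 to 4247) met at their edges. The most abundant marker of each list had a log2 fold change of 0.11 for Top2a (progenitors), 0.42 for Krt5 (horizontal basal cells), 0.10 for Cbr2 (sustentacular cells), -0.19 for Gnao1 (vomeronasal neurons), -0.26 for Car2 (necklace neurons), 0.20 for Ascl3 (microvillar cells), 0.23 for Fabp7 (ensheathing glia), 0.88 for Hbb-bs (blood) and 0.25 for Foxj1 (ciliated cells), none of them called by limma. The part of these cells in the lower transduction genes was not tested.

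Levels of different genes were compared per exonic length, within a table. In the control mice of the Kir2.1 experiment Omp stood first with 15550 ± 1170 normalized counts per kb (SD, n = 3), followed by Gng13 (8139 ± 257), Rtp1 (4459 ± 133), Cnga2 (3516 ± 282), Adcy3 (3461 ± 363), Rtp2 (3041 ± 98.7), Gnal (2409 ± 251), Cnga4 (1515 ± 142), Ano2 (1252 ± 89.5) and Cngb1 (607 ± 39.6). The ranges of Cnga2 and Adcy3, and those of Adcy3 and Rtp2, overlapped, and other neighbours in this order did not. In the control mice of the PEA experiment the order was Omp (3179 ± 255, n = 4), Gng13 (1943 ± 640), Cnga2 (1595 ± 11.4), Rtp1 (1381 ± 171), Gnal (747 ± 77.0), Rtp2 (745 ± 101), Ano2 (446 ± 32.9), Adcy3 (371 ± 56.8), Cnga4 (270 ± 35.8) and Cngb1 (90.6 ± 14.9). Overlaps between neighbours were those of Gng13 with Cnga2, Gnal with Rtp2 and Ano2 with Adcy3. The place of Gnal depends on the length used, because its exons span 11172 bases in the annotation and its longest transcript 5736, and by the latter it rose to the third place in the Kir2.1 controls and the fourth in the PEA controls.

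**Figure D2:**
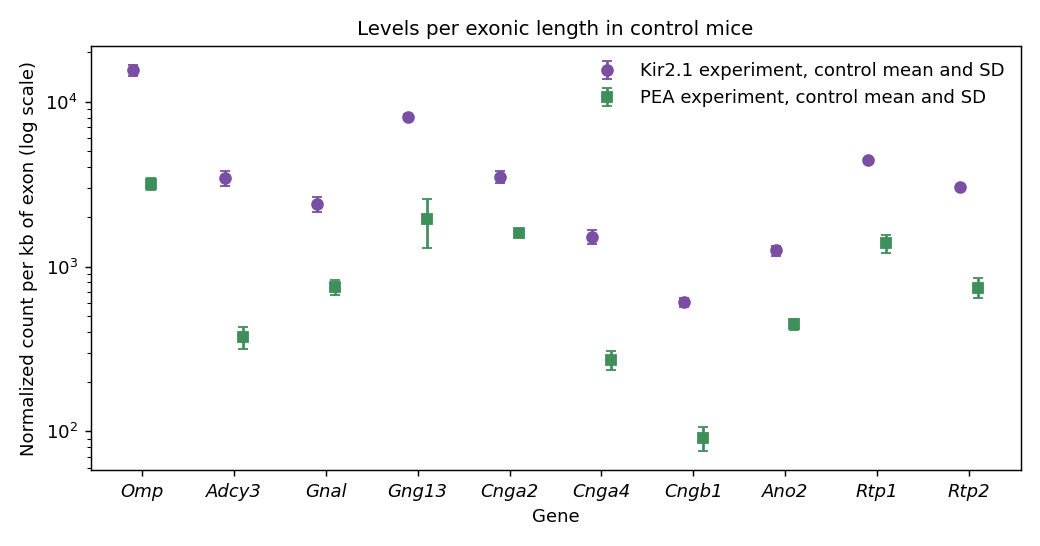
Normalized count per kb of exon in control mice (vertical axis, log scale) for each transduction gene (horizontal axis), with means and SD over 3 control mice of the Kir2.1 experiment (circles) and 4 of the PEA experiment (squares). Omp is the highest and Cngb1 the lowest in both, and the tables were normalized separately, so heights are not comparable between them.

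In Kir2.1 controls Adcy3, Gng13, Cnga2, Ano2 and Rtp1, 5 of the 10 genes, were the leading members of their families. Per exonic length, Adcy3 took 85.8% of the signal of 10 adenylyl cyclases in Kir2.1 controls (range 84.3% to 86.8%) and 68.5% in PEA controls, ahead of Adcy6 and Adcy2. Gng13 took 59.8% of 12 gamma subunits in Kir2.1 controls, ahead of Gng8, a gamma subunit of immature OSNs and vomeronasal neurons, at 18.5% and of Gng10 at 5.70%. Cnga2, Cnga4 and Cngb1 took 62.2%, 26.8% and 10.8% of the 6 cyclic nucleotide-gated channel genes, with Cnga3 at 0.133% and Cngb3 at 0.0696%, Ano2 took 37.4% of 10 anoctamins ahead of Ano8 (19.1%) and Ano10 (16.2%), and Rtp1 and Rtp2 took 57.9% and 39.5% of the 4 receptor transporting proteins, with Rtp4 at 2.60%. The place of Gnal among 16 alpha subunits depended on the experiment and on the length used. In Kir2.1 controls it took 17.5% per exonic length, after Gnai2 (26.3%) and before Gnas (16.1%), and 22.6% per longest transcript, after Gnas (28.1%) and before Gnai2 (19.0%). In PEA controls Gnal came first, at 28.7% per exonic length and 36.3% per longest transcript. In Kir2.1 mice the shares of Adcy3 (77.8% to 79.3%), Gng13 (51.8% to 54.1%, against 58.5% to 60.6% in controls), Ano2 (29.7% to 31.8%, against 36.8% to 38.1%) and Rtp2 (35.4% to 36.9%, against 38.3% to 40.3%) lay below those of all control mice. Shares also depend on the other genes of a family, and how often shares separate the groups over all genes was not worked out. They use the same counts as above and are not a separate result. The share of Rtp4 was 1.49% to 3.16% in control mice and 4.35% to 10.9% in Kir2.1 mice, and its level was 200 and 493 normalized counts per kb (limma log2 fold change 1.25, adjusted p = 0.335). The shares of Cnga2 (61.4% to 63.1% in controls and 61.9% to 64.5% in Kir2.1 mice), Cnga4, Cngb1, Rtp1 and Gnal overlapped.

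In the PEA experiment the 10 genes did not move together. The mean was lower in exposed mice for 5 genes and higher for 5, the median log2 fold change was -0.02 as it was for all 17322 genes tested, and 0 of the 10 were called, where 0.0346% of all genes were called lower and 0.144% higher. Of the 10, 1 was lower at an unadjusted p under 0.05 (Gnal), where 6.04% of all genes were, and 1 was higher (Omp), where 8.93% were. Groups did not overlap for 1 lower gene (Cnga2) and 1 higher gene (Omp), against 3.86% and 5.46% of all genes.

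**Figure D3:**
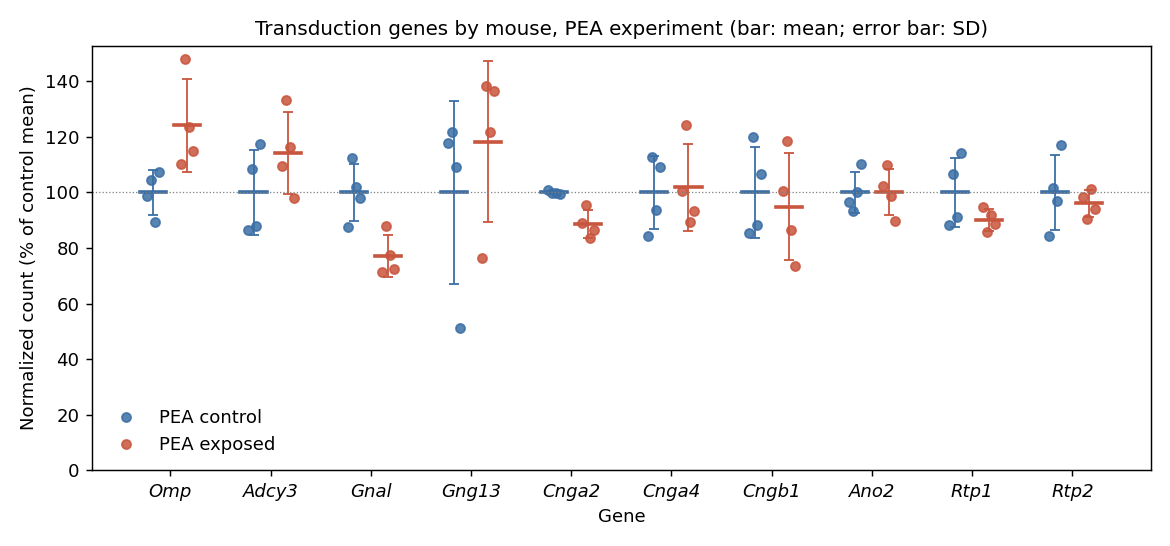
Normalized counts of the 10 transduction genes in the PEA experiment as a percentage of the control mean (vertical axis), by gene (horizontal axis). Each point is a mouse (4 control mice, 4 exposed mice), thick bars are means and error bars are SD. Omp lies higher and Cnga2 lower in all exposed mice, and Gng13 has 1 low control mouse.

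Omp read 6726, 7127, 6087 and 7326 in control mice and 7510, 10082, 8427 and 7821 in exposed mice, so that the groups did not overlap (limma log2 fold change 0.31 ± 0.11 SE, 95% interval 0.05 to 0.56, adjusted p = 0.252). Cnga2 read 4936, 4875, 4884 and 4853 in control mice, a spread of 0.717% of their mean, and 4346, 4658, 4084 and 4224 in exposed mice (limma log2 fold change -0.18 ± 0.08 SE, adjusted p = 0.335). Each of these genes had an exact permutation p of 0.0286 (two-sided), the smallest that 4 mice against 4 allow. Gnal read 7309, 9390, 8506 and 8171 in control mice and 5956, 7334, 6460 and 6037 in exposed mice, where exposed mouse 2 lay above control mouse 1 by a small margin (limma log2 fold change -0.37 ± 0.11 SE, adjusted p = 0.165, exact permutation p = 0.0571).

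The other 7 genes overlapped between the groups. Adcy3 read 1613, 2025, 1640 and 2190 in control mice and 2043, 2487, 2170 and 1829 in exposed mice (log2 fold change 0.20, 95% interval -0.10 to 0.49). Gng13 read 1771, 1828, 1638 and 770 in control mice and 1146, 2077, 1826 and 2052 in exposed mice, and control mouse 4 was the lowest of all 8 (log2 fold change 0.28, 95% interval -0.35 to 0.91). Without that mouse the log2 fold change of Gng13 was -0.013. The remaining 5 genes had log2 fold changes of 0.02 for Cnga4 (95% interval -0.28 to 0.33), -0.09 for Cngb1 (-0.45 to 0.28), 0.0011 for Ano2 (-0.21 to 0.22), -0.14 for Rtp1 (-0.37 to 0.09) and -0.05 for Rtp2 (-0.29 to 0.19).

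**Figure D4:**
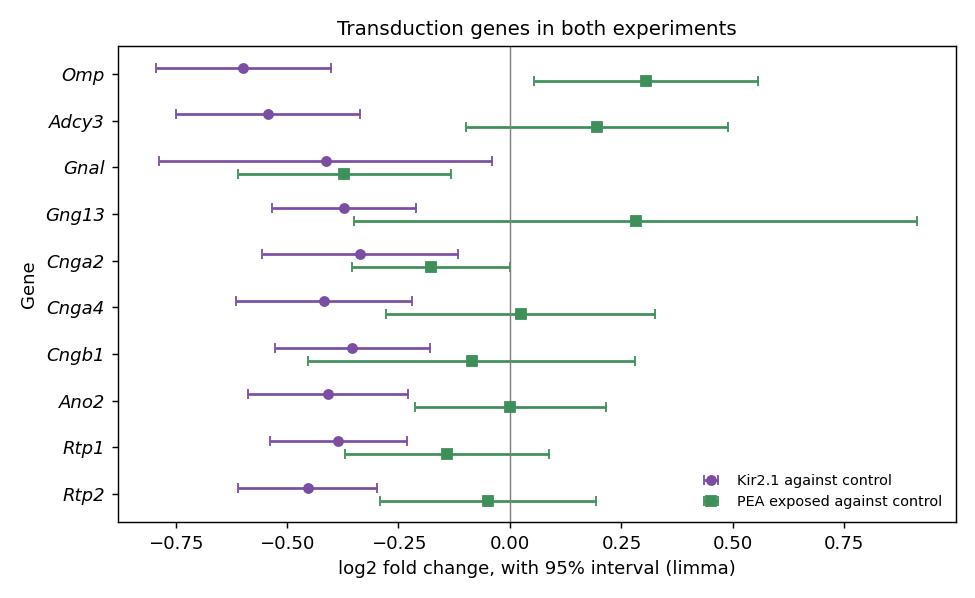
Log2 fold change (horizontal axis) of each transduction gene (vertical axis) in Kir2.1 mice (circles) and PEA-exposed mice (squares) against their own controls, with 95% intervals from limma. All 10 circles lie below 0 with intervals that exclude it, and the squares lie on both sides of 0. The difference between the experiments was not tested.

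The highest and lowest values in the PEA experiment belonged to genes that differed in the base composition of their transcripts. Omp (57.0% GC), Adcy3 (57.0%) and Gng13 (58.7%), the genes richest in G and C, had the highest log2 fold changes, and Gnal (49.0%), Cnga2 (48.5%) and Rtp1 (48.2%) the lowest. Cngb1 was an exception, lower (-0.09) at 53.9% GC while Cnga4 (51.7%) and Ano2 (51.2%) were near 0. Across 17002 genes with a GC value, 98.2% of those tested, the PEA log2 fold change correlated with transcript GC content at a Spearman rho of 0.489, whereas over 19399 genes of the Kir2.1 experiment rho was 0.0709. Genes are not independent replicates, and these values are descriptions. Mouse by mouse, the deviation from the mean of all mice correlated with GC content at -0.323 to -0.0904 in PEA control mice and at 0.00743 to 0.541 in exposed mice. The groups did not overlap in this measure (exact permutation p = 0.0286, two-sided), and those of the Kir2.1 experiment did (-0.162 to 0.0528 and -0.0906 to 0.137, exact permutation p = 0.4). Per the study's methods, a correction for GC bias had already been on when the authors derived the gene values. Exposure and this measure separated the same PEA mice, so their parts in the PEA values cannot be told apart.

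With the dependence on GC content removed in each mouse, an alternative added after the values were seen, the PEA log2 fold change of Omp was 0.07 (adjusted p = 0.845 by limma), that of Adcy3 -0.04 and that of Gng13 -0.01. Gnal kept most of its difference, at -0.33 (adjusted p = 0.369, unadjusted p = 0.0137 by limma), and Cnga2 stood at -0.12. In the Kir2.1 experiment the same correction left all 10 genes lower, from -0.60 for Omp (adjusted p = 0.0352 by limma) to -0.34 for Cnga2.

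**Figure D5:**
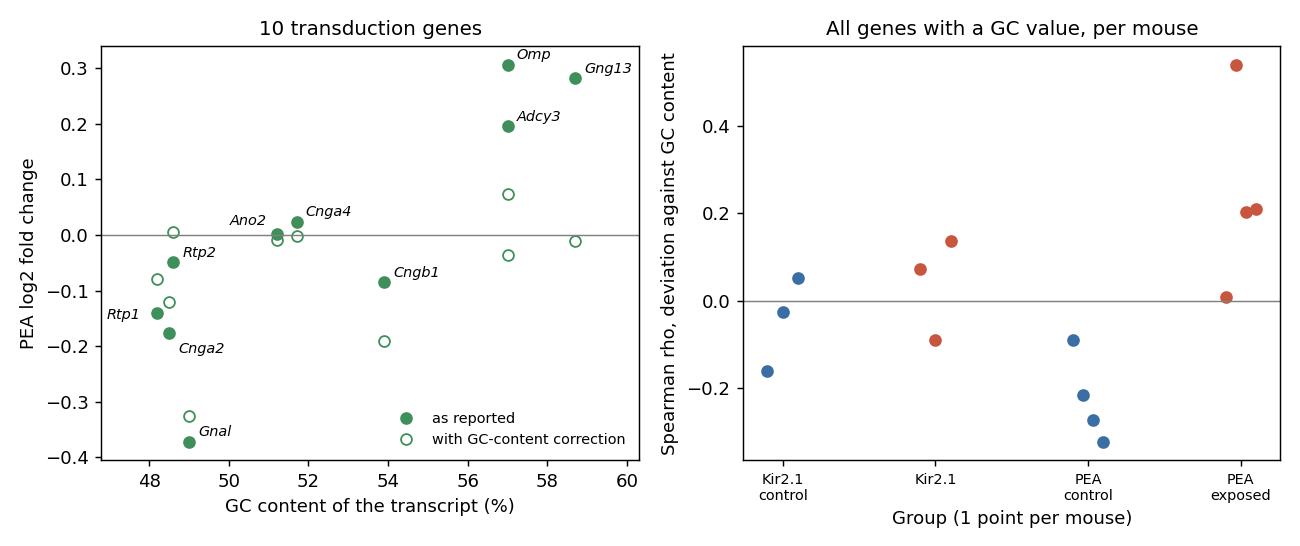
Left, PEA log2 fold change (vertical axis) of the 10 transduction genes against the GC content of the transcript in percent (horizontal axis), as reported (filled) and with GC-content correction (open). Right, Spearman rho between the deviation of each mouse and GC content over all genes with a GC value (vertical axis), 1 point per mouse in 4 groups (horizontal axis). The 3 genes above 56% GC lie highest before the correction and near 0 after it, and PEA-exposed mice lie above all PEA control mice.

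Marker and pathway lists in the PEA experiment held 0 called genes. Of 6 mature OSN markers 5 were lower (median -0.08, Ebf2 the most abundant), of 8 immature markers 4 (median 0.04, Dpysl3 the most abundant), of 6 onset and trafficking partners 4 (median -0.06) and of 9 termination genes 3 (median 0.025). At an unadjusted limma p under 0.05, 3 of the 8 immature markers were higher and 0 lower. Over all genes tested 8.93% were higher and 6.04% lower at this threshold. Of the 6 mature markers 0 passed it in either direction. The most abundant of the onset and trafficking partners, Gnb1, had a log2 fold change of 0.0084. Of the 3 horizontal basal cell markers, Krt5, the most abundant (log2 fold change 0.63, limma adjusted p = 0.142), and Krt14 had a higher mean and Trp63 did not (321 and 320 normalized counts), and the list summed to 698 to 845 normalized counts in control mice and 922 to 1103 in exposed mice. The summed levels of the other 8 cell type lists overlapped between the groups, with log2 fold changes of their most abundant genes from -0.41 (Fabp7) to 0.54 (Car2). The mean log2 value of the vomeronasal receptor genes was 0.50 to 2.41 in control mice and 0.52 to 2.16 in exposed mice. Their part in the values of the transduction genes was not tested.

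Some of the transduction genes varied together among mice of a group. Over deviations of the 14 mice from their own group means of log2 values, Omp, Adcy3, Gnal, Cnga4 and Cngb1 each correlated with the mean of the other 9 genes at Pearson r from 0.732 to 0.811. The values were lower for Cnga2 (0.520), Ano2 (0.433), Rtp1 (0.267) and Rtp2 (0.0733). Taken by experiment, Cnga2 (0.768), Ano2 (0.779) and Rtp1 (0.797) lay above Adcy3 (0.584) and Cnga4 (0.716) in the Kir2.1 experiment, where 3 mice a group are too few to rank them. In the PEA experiment these 3 were at 0.494, 0.322 and 0.177. Rtp2 was low in both (0.116 and 0.067). Gng13 went the other way at -0.304. The closest pairs were Cnga4 with Cngb1 (r = 0.879), Rtp1 with Rtp2 (0.859) and Adcy3 with Cngb1 (0.842), and the most opposed was Gng13 with Rtp2 (-0.696). The genes whose deviations were most like the mean of the 10, among 16695 genes with a mean of at least 10 in both experiments, were Sipa1l2 (r = 0.957), Fbxo10 (0.947), Dyrk1a (0.943), Sptbn4 (0.942) and Smarca4 (0.921). These are descriptions over 14 points that share tissue dissection and library between genes. Among these points PEA exposed mouse 2 had the largest mean deviation of the 10 genes (0.168). It also had the highest correlation with GC content (Spearman rho 0.541).

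Positions in GRCm38 set some limits on single genes. Omp (ENSMUSG00000074006, chromosome 7, 98143359 to 98145502, minus strand) lies within Capn5 on the same strand, and Capn5 had a Kir2.1 log2 fold change of -0.08. Adcy3 (ENSMUSG00000020654, chromosome 12, 4133103 to 4213525, plus strand) overlaps Cenpo on the other strand, which had 0.02. Gng13 (ENSMUSG00000025739, chromosome 17, 25717171 to 25719406, plus strand) overlaps Chtf18 on the other strand, which had 0.18 in the Kir2.1 experiment and 0.82 in the PEA experiment at means of 50.6 and 88.8 normalized counts. The Kir2.1 libraries did not keep strand, so reads from overlapping exons of opposite strands cannot be told apart there. Gnal (ENSMUSG00000024524) overlaps Chmp1b, a protein-coding gene on the same strand (Kir2.1 log2 fold change 0.14), Mppe1 on the other strand (-0.24) and 4 other annotated entries, and Ano2 (ENSMUSG00000038115, chromosome 6) overlaps a pseudogene and a small nuclear RNA gene. Cnga2 (ENSMUSG00000005864, chromosome X), Cnga4 (ENSMUSG00000030897, chromosome 7), Cngb1 (ENSMUSG00000031789, chromosome 8), Rtp1 (ENSMUSG00000033383, chromosome 16) and Rtp2 (ENSMUSG00000047531, chromosome 16) overlapped no other annotated gene.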

How the data were processed

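RNA of 14 olfactory epithelia was sequenced by the authors. Per the study's methods, poly-A RNA was used without strand marking for Kir2.1 and ribosomal RNA-depleted, stranded RNA for PEA. The authors derived gene values with Salmon, tximport and DESeq2. Salmon was run at a reverse-stranded setting with its corrections for sequence bias and GC bias. The deposited tables hold this signal, normalized counts scaled with DESeq2 by the authors within each experiment. The authors' processing notes name bcl2fastq 2.18, Salmon 1.3.0 and DESeq2 1.30.0. Depth is unknown, and nothing was tested between the tables.

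Genes with a mean of at least 10 were tested per experiment with limma 3.58.1 (R 4.3.3) on log2(value + 1), which understates changes of low genes, with empirical Bayes moderation, a mean-variance trend and Benjamini-Hochberg adjustment (threshold 0.05). The test was checked on simulated data with independent noise, and with either no change or changes larger than those of the 10 genes. That check therefore does not cover changes of their size. Single values used exact permutation tests. The rest was done in Python 3.11.15 (matplotlib 3.10.9, scipy 1.17.1, pandas 2.3.3, numpy 2.4.6), with positions, lengths and transcript GC content from GENCODE vM21. The members and lists were chosen with earlier results of these data known. Genes named beyond the 10 were, in each list, those called and the most abundant (1 of these is not reported here), the next 2 in each family, and the 5 most alike. Capn5, Cenpo, Chtf18, Trpc2, Ptprc, Trp63, Krt14, Chmp1b and Mppe1 were singled out after their values were seen.

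Mice share replicate numbers in the labels, but nothing says that equal numbers share a litter, and their deviations correlated at -0.0585, -0.0106 and 0.155 (Kir2.1) and 0.135, -0.02, -0.0506 and 0.101 (PEA), so mice were not paired. The control mouse called PEA control 4 has the number 5 in its library name. Alternatives were other pseudocounts and filters, other moderation and scaling, covariates, a replicate block and each mouse left out, and the Xist covariate and the GC-content correction were added after the data were seen.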

Additional observations from a re-analysis of the deposited data

How the results depend on the processing

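In the Kir2.1 experiment all 10 transduction genes were lower under each of 18 refits, but the number called at 0.05 by limma, 1 as reported, was 0 with a pseudocount of 5, 0 without a filter on low values, 0 without the mean-variance trend, 0 with the vomeronasal covariate and 0 (0 to 0) whichever mouse was left out. The number was 2 with robust moderation (Omp and Rtp2) and 4 at a threshold of 0.10. With the replicate block, which pairs mice by number although pairing was not shown, it was 0, with an adjusted p of 0.0799 for Omp. The causes were not tested. In the PEA experiment 0 genes were called under every alternative, the replicate block included, and the sign of several small differences changed (log2 fold changes). With quantile normalization Rtp2 was 0.017. With median centring Cnga4 was -0.026 and Ano2 -0.049, and with the vomeronasal covariate -0.017 and -0.021. With the Xist covariate they were -0.0031 and -0.018. With the GC-content correction Adcy3 was -0.036, Gng13 -0.011, Cnga4 -0.00115, Ano2 -0.0088 and Rtp2 0.0043. With single mice left out, Cnga4 ranged from -0.075 to 0.084, Ano2 from -0.045 to 0.053, Cngb1 from -0.20 to 0.028, Gng13 from -0.013 to 0.48 and Rtp2 from -0.13 to 0.029. The directions of Omp, Gnal, Cnga2 and Rtp1 did not change under these alternatives. Library depth is unknown and 3 or 4 mice a group limit the precision, so small differences may have been missed. The intervals given show this precision, and the smallest difference that could be detected was not worked out.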
